A study of Mus musculus with 21 samples.

Results

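The genes described here are 9 genes of Langerhans cells and of MHC class II antigen presentation, measured in the dorsal skin of hairless mice during 8 weeks of UV irradiation. They are Cd207, Epcam, Itgax, Cd74, H2-Aa, H2-Ab1, H2-Eb1, Ciita and Ccr7, among 17403 genes that have at least 1 tested probe set with no other gene's symbol. A probe set is a group of array probes summarized to 1 value, and 17 of the 40540 tested probe sets were annotated to 1 of these genes alone. All 17 reached the 20th percentile of their array on at least 1 array and were tested, and 1 of the 3 probe sets of Ciita (1447075_at) did so on 1 array only.

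RNA of whole dorsal skin was hybridized to 21 Affymetrix Mouse Genome 430 2.0 arrays in 7 groups of 3, and the values are log2 intensities of the normalized signals deposited by the authors. The mice were female Hos:HR-1 animals, an albino hairless strain, bought at 6 weeks of age and kept for 1 week before the experiment. Control mice at weeks 1 and 8 were not irradiated, and the other groups were irradiated 3 times a week and sampled at UV weeks 1, 2, 4, 6 and 8. The dose began at 1 MED, the minimal erythema dose (100 mJ per square centimetre), and was raised weekly by 1 MED to 4 MED. The design text of the series gives 3 animals a group, whereas the methods of the study speak of 6 groups, and the irradiated groups have 1 control of equal time only at weeks 1 and 8. No label ties an array to a numbered animal, so the p-values measure the spread between arrays.

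Langerhans cells are the resident antigen-presenting cells of the epidermis, and langerin, the product of Cd207, is the lectin from which their Birbeck granules are built. They take up antigen in the skin, leave for the draining lymph node after stimulation, among others by UV light, and present peptides on MHC class II molecules to CD4 T cells. Class II molecules are pairs of an alpha and a beta chain that are assembled with the invariant chain Cd74, and the transactivator Ciita, bound to factors on the X and Y boxes of their promoters, turns the whole set of genes on together.

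Promoter sequence of 5 of the 9 genes was in the RefSeq table of the build GRCm38.p6, and the 200 bases before the start of the alpha chain gene H2-Aa and of the beta chain gene H2-Eb1 are shown because these neighbouring genes carry the class II control elements through which Ciita acts. The window of H2-Aa is chr17:34287824-34288023, on the minus strand, and that of H2-Eb1 is chr17:34305667-34305866, on the plus strand. Capitals mark the letters TGATTGG of the Y box and AACTGATGA of the X box, searched on both strands.
H2-Aa: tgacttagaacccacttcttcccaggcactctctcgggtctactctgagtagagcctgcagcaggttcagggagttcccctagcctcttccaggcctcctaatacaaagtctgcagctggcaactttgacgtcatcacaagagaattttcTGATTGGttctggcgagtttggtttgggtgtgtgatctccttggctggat
H2-Eb1: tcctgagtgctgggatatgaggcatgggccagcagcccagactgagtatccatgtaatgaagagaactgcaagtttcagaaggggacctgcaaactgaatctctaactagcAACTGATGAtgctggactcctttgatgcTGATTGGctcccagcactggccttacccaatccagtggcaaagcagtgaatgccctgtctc
The Y box letters began 50 bases before the start in H2-Aa and 61 bases before it in H2-Eb1, on the sense strand in both. The X box letters in this exact spelling were found in H2-Eb1 alone, 89 bases before the start. For H2-Aa this says only that this spelling is not there, not that the gene has no X box. Of 32851 RefSeq promoters, 6.57% held the Y box letters and 0.17% the X box letters. The windows of Cd207, Epcam and Itgax held neither, which says only that these letters are not there.

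The arrays read skin: Krt10 of the upper epidermis had group means between 14.25 and 14.47, and Krt14 of the basal layer between 12.70 and 13.85. Replicate arrays of a group correlated across probe sets with r between 0.957 and 0.996 over 21 pairs. The 3'/5' log2 ratio of beta-actin, which rises as RNA is degraded, was above 4 on 8 arrays, among them 2 of the 3 at UV weeks 1, 6 and 8 and none at control week 8 or UV week 2. Array numbers are those of the labels, and the arrays above 4 are 12, 112, 114, 333, 441, 445, 552 and 555. A probe set counted as called where its p from limma, after Benjamini-Hochberg adjustment over the 40540 probe sets, did not exceed 0.05, whatever the fold. Each gene stands for its brightest probe set, that of highest mean over the arrays, unless another is named.

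Cd207 fell strongly in the skin of mice irradiated for 6 and 8 weeks, and it was the only one of the 9 genes called lower in every comparison with controls that gave a call. It was 3.76-fold lower than in control week 1 at UV week 6 and 3.37-fold lower at UV week 8. At UV week 4 it stood near the control level, between lower values before and after. In RNA of whole skin, fewer Langerhans cells and less Cd207 RNA per cell cannot be told apart.

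The 3 arrays of control week 1 read 8.73, 8.90 and 9.02 for Cd207, and those of control week 8 read 9.01, 8.63 and 8.59. UV week 1 gave 8.30, 7.87 and 7.81, and UV week 2 gave 8.38, 8.08 and 7.63. Every array of these irradiated weeks lay below all 3 arrays of control week 1. UV week 4 gave 8.62, 8.95 and 8.70, all within the range of control week 8, and 2 of these arrays lay below all 3 arrays of control week 1. UV week 6 gave 6.76, 6.76 and 7.39, and UV week 8 gave 7.84, 6.60 and 6.95. All 6 of these late arrays lay below all 6 control arrays.

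**Figure D1:**
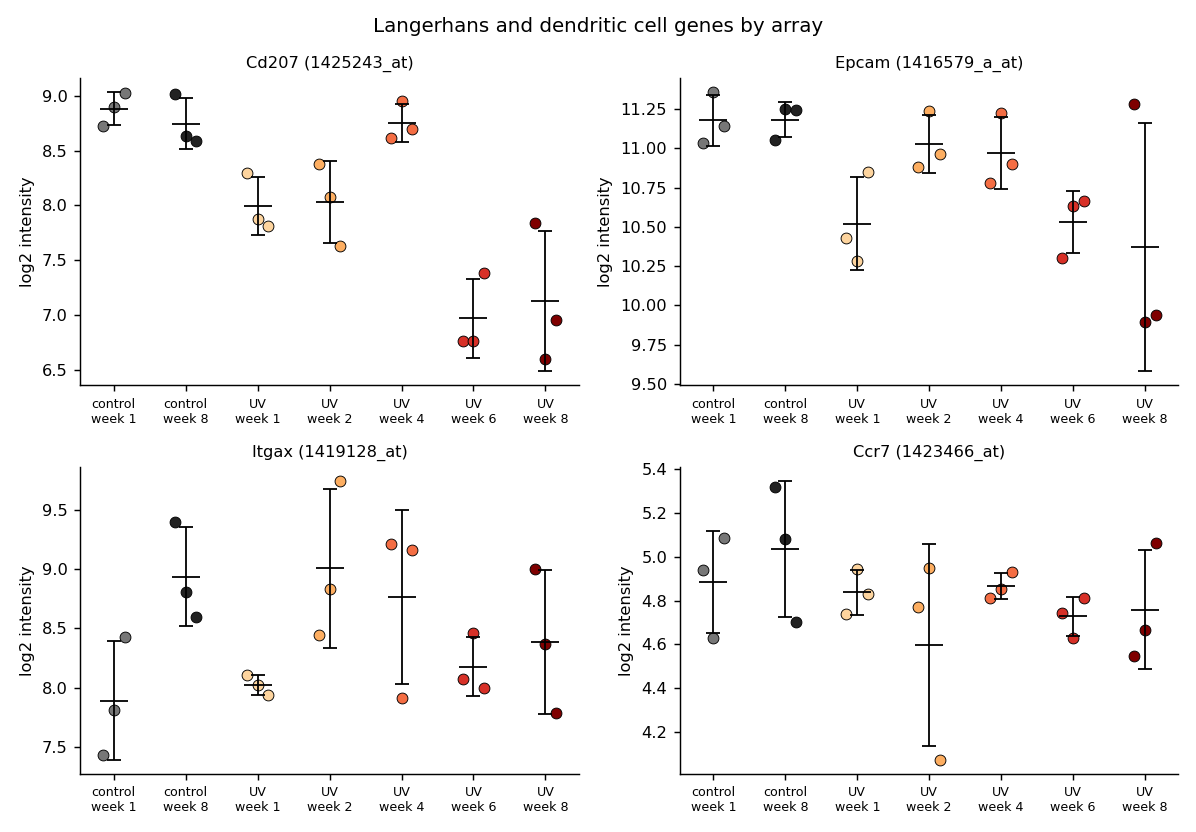
Log2 intensity (vertical axes) of Cd207, Epcam, Itgax and Ccr7 in each of the 21 arrays (points), by group (horizontal axes), with the mean and SD of 3 arrays as bars. Cd207 reads between 6.60 and 7.84 at UV weeks 6 and 8 and between 8.59 and 9.02 in the controls, while Itgax and Ccr7 have no such step.

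The log2 difference of Cd207 from control week 1 was -0.89 (SE 0.26, n = 3 per group, limma adjusted p = 0.149) at UV week 1 and -0.85 (adjusted p = 0.401) at UV week 2. Neither passed the test although the groups do not overlap. At UV week 4 the difference was -0.13, with a 95% interval from -0.68 to 0.42 (adjusted p = 0.899). At UV week 6 it was -1.91 (SE 0.26, adjusted p = 0.000707) and at UV week 8 -1.75 (adjusted p = 0.000788). Against control week 8 the log2 difference at UV week 8 was -1.62 (adjusted p = 0.0032), and the control groups differed from each other by -0.14 (adjusted p = 1.00). The mean of the 5 UV groups was below the mean of both control groups by a log2 difference of -1.04 (SE 0.15, adjusted p = 0.000615).

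Cd207 also differed among the irradiated weeks themselves (limma F = 15.6, adjusted p = 0.00642). Between UV week 2 and UV week 4 it differed by 0.72 on the log2 scale, which did not pass (adjusted p = 0.691). From UV week 4 to UV week 6 it fell by 1.78 (adjusted p = 0.0399), a comparison added after the values were seen. Cd207 was 1 of 2 probe sets called lower in that step of 40540 (0.00493%), and the call was lost without any 1 of the arrays 331, 333, 334, 441 or 443 (adjusted p between 0.0561 and 0.266). UV weeks 6 and 8 differed by 0.16. The beta-actin ratio at UV week 6 was 4.12, 2.36 and 5.11 on arrays 441, 443 and 445, and array 443, with the low ratio, read 6.76 for Cd207 like array 441. At UV week 8 array 551, at a ratio of 2.77, read highest for Cd207 (7.84), and arrays 552 and 555, at 5.14 and 4.90, read lower. Without the 8 arrays of high ratio the Cd207 difference was -2.20 at UV week 6, on array 443 alone. At UV week 8 it was -1.12, on array 551 alone. The part of RNA quality in these values was not tested.

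Epcam, an adhesion molecule of Langerhans cells that epithelial cells also make, was lower on most irradiated arrays at its brighter probe set. Control week 1 read 11.03, 11.36 and 11.14 and control week 8 read 11.06, 11.25 and 11.24. UV weeks 1 and 6 were lower on every array, with 10.43, 10.28 and 10.85 at week 1 and 10.30, 10.63 and 10.66 at week 6. UV week 2 read 10.88, 11.24 and 10.96 and UV week 4 10.78, 11.22 and 10.90, both overlapping the controls. At UV week 8 the arrays divided into 11.28 on array 551 and 9.89 and 9.94 on arrays 552 and 555. Array 551 has a beta-actin ratio of 2.77 and the other two have 5.14 and 4.90, and the part of this in the Epcam values was not tested. The mean of the UV groups was lower by a log2 difference of -0.50 (SE 0.16, limma adjusted p = 0.0404), and no single week passed. This call was lost under 18 of 28 alternatives, among them without any 1 of 14 arrays (13, 16, 51, 53, 55, 112, 114, 222, 225, 331, 334, 441, 552 or 555), and without the 8 arrays of high ratio the difference was -0.29 (adjusted p = 0.0593).

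The other Epcam probe set (1447899_x_at) pointed the other way. It was higher at UV week 8 than at control week 1 by 0.46 (SE 0.15, adjusted p = 0.0452), where 5.39% of all probe sets were called higher. With both probe sets averaged, the UV mean of Epcam differed by -0.16 (adjusted p = 0.248), so the direction of Epcam depends on the probe set.

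Itgax encodes CD11c, the integrin chain by which dendritic cells, Langerhans cells included, are often recognised. It read 7.44, 7.81 and 8.43 in control week 1 and was higher in control week 8, at 9.40, 8.81 and 8.60. UV weeks 1 and 6 gave 8.11, 8.02 and 7.94 and 8.07, 8.46 and 8.00. The highest irradiated arrays were at UV week 2 (8.44, 8.83 and 9.74) and UV week 4 (9.21, 7.92 and 9.16), and UV week 8 read 8.997, 8.37 and 7.79. No comparison of Itgax passed the test. Its log2 difference was 1.11 at UV week 2 (adjusted p = 0.477) and 1.04 between the control groups (adjusted p = 0.686). Ccr7, the chemokine receptor that guides dendritic cells to lymph nodes, stayed between 4.07 and 5.32 over all arrays. Its UV mean differed by -0.20, with a 95% interval from -0.45 to 0.05 (adjusted p = 0.233).

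The class II genes were lower on part of the irradiated arrays, and with all arrays only H2-Ab1 was called. At UV week 6 H2-Ab1 was 1.93-fold lower than in control week 1 on its brightest probe set. Cd74 had a larger difference with a larger spread and was not called with all arrays. H2-Aa stayed close to the control level at its brightest probe set, and H2-Eb1 varied between arrays more than nearly any other probe set.

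H2-Ab1 encodes the beta chain of the I-A molecule. It read 11.44, 11.55 and 11.68 in control week 1 and 11.74, 11.74 and 11.62 in control week 8. UV week 1 gave 10.71, 10.38 and 11.44, and UV week 6 gave 10.17, 10.84 and 10.80. All 3 arrays of UV week 6 lay below all control arrays. UV week 2 read 11.66, 11.53 and 11.38 and UV week 4 read 11.09, 11.81 and 11.75, close to the controls but for array 331. UV week 8 was divided like Epcam, with 11.50 on array 551 against 10.60 and 10.23. The log2 difference from control week 1 was -0.95 at UV week 6 (SE 0.29, limma adjusted p = 0.0412) and -0.78 at UV week 8 (adjusted p = 0.0812). The UV mean was lower by a log2 difference of -0.57 (SE 0.17, adjusted p = 0.0331). That call was lost under 9 of 28 alternatives, among them without any 1 of the arrays 13, 16, 51, 53, 55 or 112, and without the 8 arrays of high beta-actin ratio the UV mean differed by -0.31 (adjusted p = 0.104). The call at UV week 6 was lost without any 1 of the arrays 12, 13, 16, 441 or 445 (differences between -1.07 and -0.73 over the arrays left out in turn, adjusted p up to 0.139). The other probe sets of H2-Ab1 were lower too and more scattered. Probe set 1451721_a_at had a log2 difference of -1.92 at UV week 6 (SE 0.71, adjusted p = 0.0799) and 1425477_x_at one of -1.54 (adjusted p = 0.123).

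**Figure D2:**
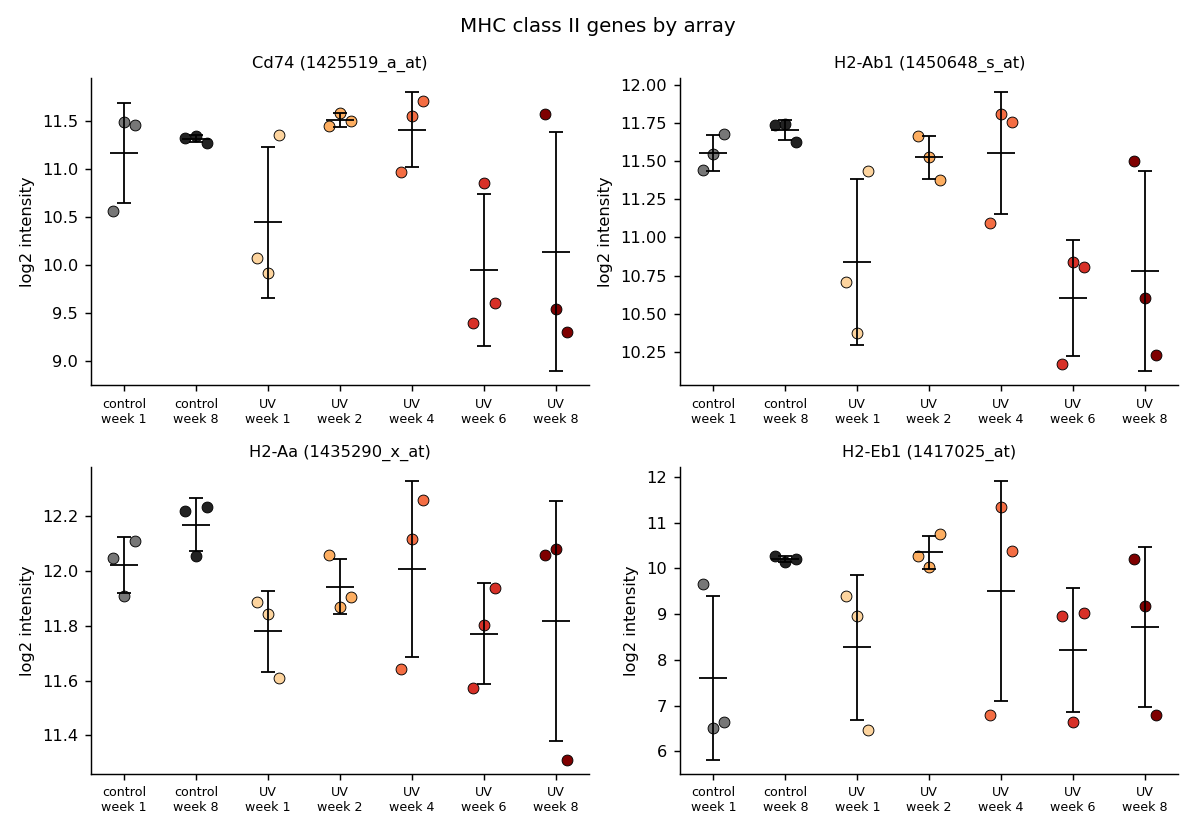
Log2 intensity (vertical axes) of Cd74, H2-Ab1, H2-Aa and H2-Eb1 in each of the 21 arrays (points), by group (horizontal axes), with the mean and SD of 3 arrays as bars. H2-Ab1 at UV week 6 lies below all control arrays, and H2-Eb1 reads either between 6.46 and 6.80 or between 8.96 and 11.34.

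Cd74, the invariant chain that accompanies class II molecules to the endosome, read 10.56, 11.49 and 11.46 in control week 1 and 11.32, 11.35 and 11.28 in control week 8. UV week 1 gave 10.07, 9.91 and 11.35, UV week 2 11.45, 11.59 and 11.51, and UV week 4 10.97, 11.55 and 11.71. The late weeks held the lowest arrays, with 9.40, 10.86 and 9.60 at UV week 6 and 11.57, 9.55 and 9.30 at UV week 8. Each irradiated group overlapped control week 1. The log2 difference was -1.22 at UV week 6 (SE 0.49, limma adjusted p = 0.101) and -1.03 at UV week 8 (adjusted p = 0.16). The difference at UV week 6 was called under 4 of 16 alternatives, at -1.29 with both controls as baseline (adjusted p = 0.0436), -0.85 with the beta-actin ratio as covariate (adjusted p = 0.0363), -1.12 with the Gapdh ratio as covariate (adjusted p = 0.0177) and -1.67 without array 443 (adjusted p = 0.0457). In all 7 groups the array of highest beta-actin ratio read less Cd74 than the array of lowest ratio, and 7 of the 8 arrays with a ratio above 4 are also the 7 lowest Cd74 arrays. Array 333, at a ratio of 4.05, is the exception and read 11.55. For H2-Ab1 at its brightest probe set this order held in 5 of 7 groups and for Cd207 in 2 of 7. The part of RNA quality in these values was not tested. Without the 8 arrays of high ratio the Cd74 difference at UV week 8 was 0.10 and that of Epcam 0.033, each with the other sign than with all arrays and resting on array 551.

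**Figure D3:**
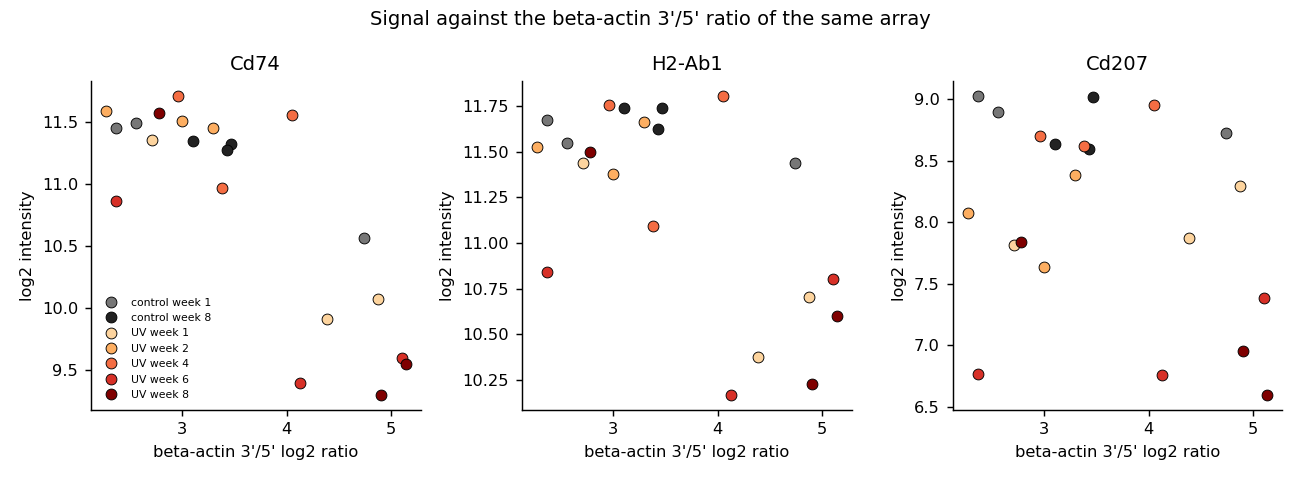
Log2 intensity (vertical axes) of Cd74, H2-Ab1 and Cd207 against the beta-actin 3'/5' log2 ratio of the same array (horizontal axes), coloured by group. The lowest Cd74 arrays are those with a ratio above 4. Cd207 reads 6.76 at UV week 6 at ratios of 2.36 and 4.12, and at UV week 8 it reads highest, 7.84, at a ratio of 2.77.

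H2-Aa encodes the alpha chain of I-A, whose promoter is printed beside that of H2-Eb1. At its brightest probe set (1435290_x_at) all 21 arrays lay between 11.31 and 12.26. The largest difference from control week 1 was -0.25 at UV week 6 (95% interval from -0.64 to 0.14, limma adjusted p = 0.352). The other probe sets spread more and not alike. Probe set 1452431_s_at had a log2 difference of -1.48 at UV week 6 (adjusted p = 0.0945) and 1443783_x_at one of 1.40 (adjusted p = 0.383). For 1443783_x_at, arrays 13 and 16 of control week 1 read 4.56 and 4.98, and array 12 read 8.16. Probe set 1438858_x_at had means of 10.94 at UV week 6 and 10.93 in control week 1. The level of H2-Aa across groups thus depends on the probe set. Ciita, the transactivator of these genes, was dim. It lay between 4.27 and 5.11 over all arrays at its brightest probe set, and its UV mean differed by 0.13 (95% interval from -0.03 to 0.30, adjusted p = 0.246).

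H2-Eb1, the beta chain of the I-E molecule, did not follow the weeks. It read 9.66, 6.50 and 6.64 in control week 1 and 10.27, 10.14 and 10.21 in control week 8. The irradiated groups gave 9.40, 8.97 and 6.46 at week 1, 10.28, 10.02 and 10.74 at week 2, 6.79, 11.34 and 10.39 at week 4, 8.96, 6.65 and 9.03 at week 6, and 10.19, 9.18 and 6.80 at week 8. No array lay between 6.80 and 8.96, so that 6 arrays (13, 16, 116, 331, 443 and 555) read low and 15 read high. Control week 1 holds 2 of the low arrays and each of UV weeks 1, 4, 6 and 8 holds 1. The SD within groups was 1.53, larger than that of all but 0.0617% of the 40540 probe sets. The H2-Aa probe set 1443783_x_at had an SD within groups of 1.54, with 0.0518% of probe sets above it. The log2 difference of H2-Eb1 from control week 1 was 2.75 at UV week 2 (SE 1.09, limma adjusted p = 0.642) and 2.61 at control week 8 (adjusted p = 0.88). Neither passed, and 2 of the 3 arrays of control week 1 are low ones in both.

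The same 6 arrays were the 6 lowest for other probe sets too. Vps52, a vesicle tethering gene near the class II genes on chromosome 17, read between 5.81 and 6.39 on the 6 arrays and between 7.14 and 8.39 on the other 15. H2-Aa probe set 1443783_x_at read between 4.56 and 5.75 on them and between 7.27 and 9.18 on the others, and 1438858_x_at read between 10.12 and 10.63 against 11.23 to 12.58. Both probe sets of D17H6S56E-5, which lies beyond H2-Ea in the same region, also had these 6 arrays at the bottom. H2-Ea, the alpha chain of I-E, ran the other way and had 5 of the 6 among its 6 highest arrays. H2-Ab1, which lies beside H2-Aa, shared 1 of its 6 lowest arrays with H2-Eb1, and Cd74 shared 1. Ranked by Pearson correlation with H2-Eb1 over the 21 arrays, in either direction, 9 of the first 10 probe sets and 12 of the first 20 are of genes on chromosome 17, which holds 4.43% of the 32148 probe sets with a known chromosome. This look at position was chosen after the values were seen, and the 6 arrays were taken from the H2-Eb1 values, so it is a description. Class II genes differ in sequence between mouse strains more than most genes, and the genotype of each mouse was not measured here. Of the 6 arrays, 1 has a beta-actin ratio above 4 (array 555).

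**Figure D4:**
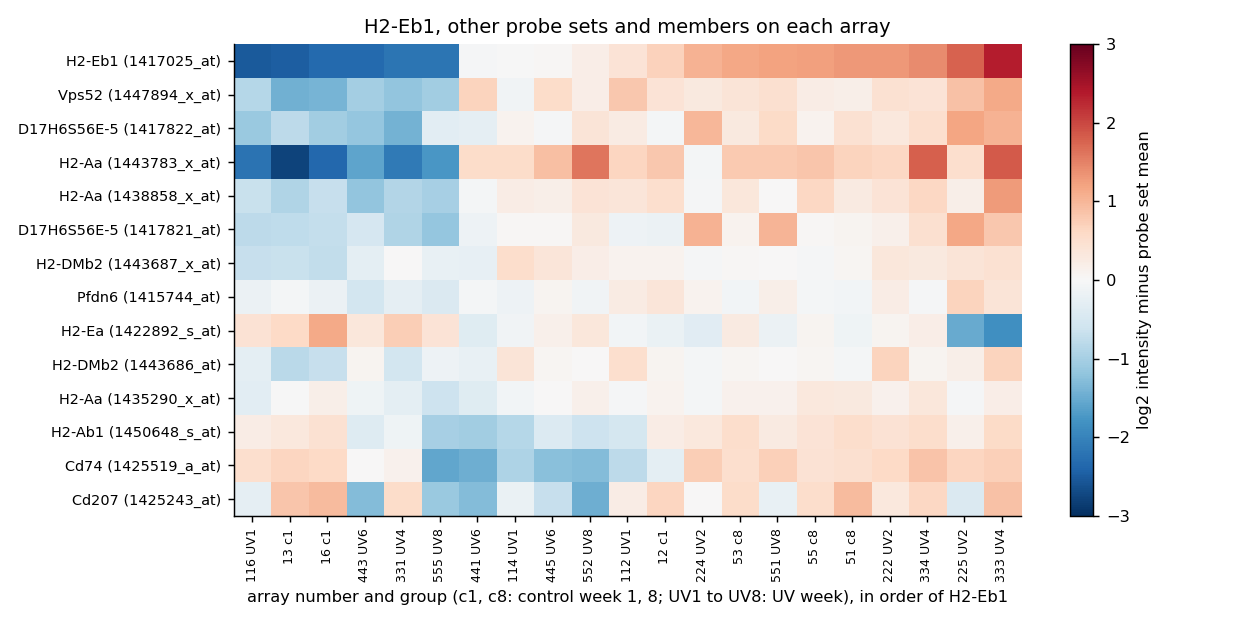
Log2 intensity of each probe set (rows) minus its mean over arrays, as colour, for the 21 arrays (columns) in order of H2-Eb1. The 6 arrays on the left are the 6 lowest for H2-Eb1, Vps52, D17H6S56E-5 and 2 probe sets of H2-Aa, and H2-Ea runs the other way, while H2-Ab1, Cd74 and Cd207 follow other arrays.

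Counted over the 9 genes, UV weeks 1, 2 and 4 gave 0 calls in limma, where 0.0123%, 0.0617% and 1.13% of all probe sets were called in either direction. At an unadjusted p under 0.05, 3 of the 9 were lower at UV week 1, 2 higher and 1 lower at UV week 2, and 1 higher at UV week 4. The share of all probe sets at that unadjusted limit was not counted, so nothing is read from these counts. At UV week 6, 2 of 9 were called lower (Cd207 and H2-Ab1) against 6.3% of all probe sets, and the median log2 difference was -0.25 for the 9 genes and 0.08 for all probe sets. At UV week 8 the count was 1 of 9 (Cd207) against 6.73%, with medians of -0.20 and 0.09. Against control week 8 the count was again 1 of 9 against 4.3%, and the medians were -0.81 and 0.09. For the UV mean 3 of 9 were called lower (Cd207, Epcam and H2-Ab1) against 8.57%, with medians of -0.23 and 0.07. Of the 9 genes, 1 (Cd207) changed among the UV weeks, where 1.58% of all probe sets did. The control groups gave 0 calls in limma against 0.0592% in either direction. At an unadjusted p under 0.05, 2 of the 9 genes, Itgax and H2-Eb1, were higher at week 8, again without a count over all probe sets.

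**Figure D5:**
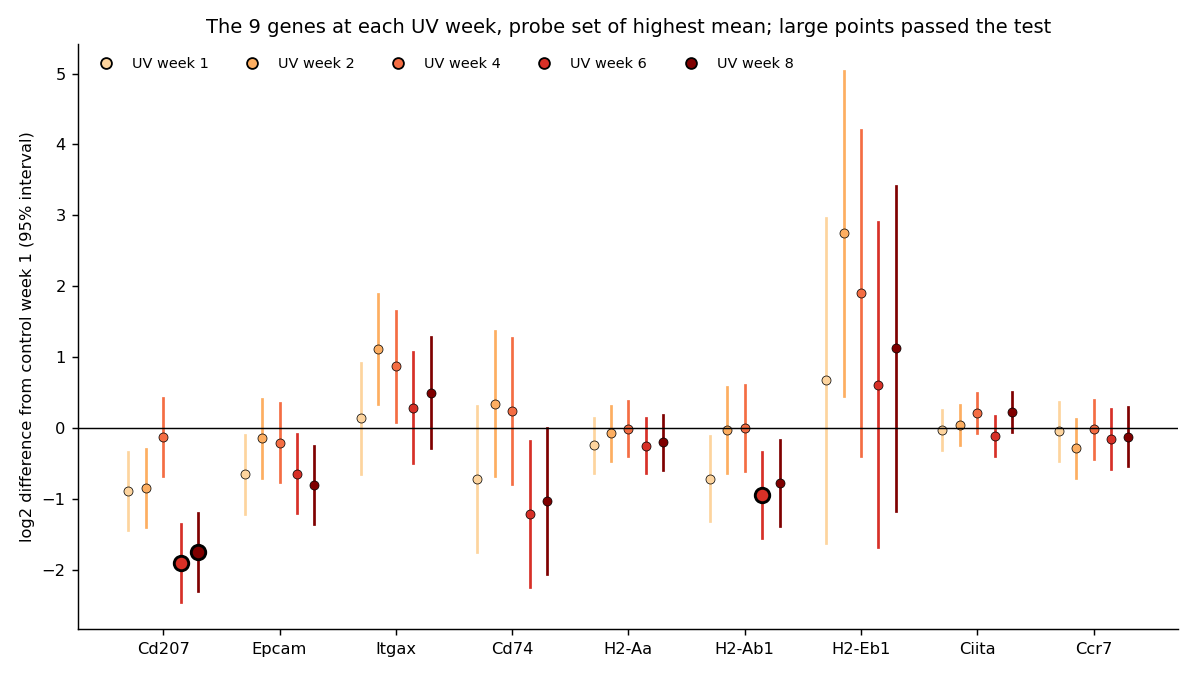
Log2 difference from control week 1 (vertical axis) of each of the 9 genes (horizontal axis) at its brightest probe set for UV weeks 1, 2, 4, 6 and 8, with 95% intervals from limma as lines. The large points, which passed the test, are Cd207 at UV weeks 6 and 8 and H2-Ab1 at UV week 6, and the intervals of H2-Eb1 are the widest.

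Other genes of antigen presentation are given for the mean of the UV groups against the mean of both control groups, where 8.57% of all probe sets were called lower and 6.3% higher. Of 11 tested genes that load or degrade class II molecules, 1 fell and none rose. That gene was H2-Ob, a chain of the H2-O molecule that restrains peptide loading (-0.44, SE 0.13, limma adjusted p = 0.0351). H2-DMa, a chain of the molecule that speeds loading, had group means between 7.08 and 8.06, lowest at UV week 6, and the protease Ctss, which cuts the invariant chain, differed by 0.07 (adjusted p = 0.6). Of 12 tested factors of class II transcription, Nfyb, a subunit of the Y box factor, fell (-0.29, adjusted p = 0.0295) and the other 11 did not pass.

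Of 7 costimulatory genes, 1 rose and 1 fell. Cd83, a marker of mature dendritic cells, fell by 0.64 (adjusted p = 0.0412), and Cd274, the inhibitory ligand PD-L1, rose by 0.29 (adjusted p = 0.0203). Of 12 genes that Langerhans cells depend on or share, 1 rose and 2 fell. Tgfbr2, a receptor chain for TGF-beta, which Langerhans cells need to stay in the epidermis, fell by 0.54 (adjusted p = 0.0136). Id2, a transcription regulator without which Langerhans cells do not develop, fell by 0.37 (adjusted p = 0.0166). Both are made by many other cells of the skin. Cd24a rose by 0.43 (adjusted p = 0.00637), and Csf1r, the receptor through which IL-34 keeps Langerhans cells alive, differed by 0.05 (adjusted p = 0.705). Of 9 chemotaxis genes, 2 rose and 1 fell. Ccl20, which draws Langerhans cell precursors into the epidermis, was lower by a log2 difference of -0.94 (adjusted p = 0.00325), and this came from control week 8, whose mean of 8.68 stood above all other group means, between 6.53 and 7.16. Ccr2, the receptor that brings in monocytes, rose by 0.57 (adjusted p = 0.00463), and Ccl5 rose by 0.49 (adjusted p = 0.0205).

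Of 12 tested genes of the response to interferon-gamma, the cytokine that drives class II expression, with the cytokine and its receptor among them, 5 rose and none fell. Cxcl10 rose by 1.39 (SE 0.17, adjusted p = 0.000119), with group means of 5.30 and 5.91 in the controls and between 6.34 and 7.32 in the irradiated groups. Cxcl9 rose by 1.31 (adjusted p = 0.00443), and the GTPase Igtp by 0.73 (adjusted p = 0.00494). Irgm1 and Gbp2 also rose, by 0.49 and 0.46. Ciita, which interferon-gamma induces too, showed no call in the same comparison.

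Markers of other cells that carry class II or share genes with Langerhans cells were read in the same comparison. Of 9 tested genes of other dendritic cells, 1 fell, Cd209a of dermal dendritic cells (-0.73, limma adjusted p = 0.0063). The log2 of the summed intensities of the 9 lay between 11.34 and 11.70 in control week 1. In control week 8 it lay between 11.13 and 11.58. At UV week 1 this sum lay between 10.76 and 11.46. It lay between 11.12 and 11.62 at UV week 2 and between 11.1 and 11.75 at UV week 4. At UV week 6 it lay between 10.66 and 11.16, where all 3 arrays lay below all 3 of control week 1. At UV week 8 it read 11.35, 10.85 and 10.57. In UV weeks 1, 6 and 8 the array with a beta-actin ratio under 4 read highest, at 11.46 (116), 11.16 (443) and 11.35 (551). Clec10a, at a mean of 10.25, is the brightest of the 9 and weighs most in the sum. The part of RNA quality in this sum was not tested. Of 9 macrophage and monocyte genes, Mertk fell (-0.63, adjusted p = 0.0199) and the other 8 did not pass. The log2 of the summed intensities of these 9 lay between 13.53 and 14.21 in the controls and between 12.68 and 14.43 in the irradiated groups. Of 6 T cell genes, Cd3g fell by 0.88 (limma adjusted p = 0.00138), and Cd8a and Cd4 rose by 0.22 and 0.25. Cd3g is a chain of the T cell receptor complex that the resident T cells of mouse epidermis carry too. Its UV group means lay between 5.75 and 6.42, at a mean over all arrays of 6.33. For the chains Cd3d, Cd3e and Cd247 the UV group means were 6.36 to 6.66, 7.79 to 8.17 and 4.34 to 4.56. Their means over all arrays were 6.52, 8.00 and 4.51. The fall of Cd3g is not read as a fall of T cells. The T cell sum lay between 9.08 and 9.37 in the controls and between 8.77 and 9.48 in the irradiated groups, and these ranges overlap. Of 5 B cell genes, the low-level Pax5 and Cd79b rose by 0.39 and 0.50. None of 5 keratinocyte genes passed, and 3 of 5 fibroblast genes fell. The log2 of the summed fibroblast intensities lay between 15.47 and 15.94 in the controls and between 14.45 and 15.98 in the irradiated groups. None of the markers read is at 0, since the lowest deposited intensity of any probe set is 4.35. The part of other cell types in the Cd207 and class II values was not tested.

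The genes whose pattern over the 21 arrays was most like that of Cd207, by Pearson correlation as a description of likeness, were Cldn23, Lce1m, Afdn, Map3k1, Trp53bp2, Clca3a2, Gsn and Naaa. Their r lay between 0.876 and 0.907. Cldn23 is a claudin of tight junctions and Lce1m a protein of the cornified envelope, and neither is a gene of immune cells. For the mean of the centred Cd74, H2-Aa, H2-Ab1 and H2-Eb1 values, the closest were Exoc3l2, Cnn2, Mogs, Tnip2, Atmin, H2-DMa, Ercc3 and Taz. With r between 0.782 and 0.805, H2-DMa was the only one of the 8 that takes part in class II presentation. The 4 genes were not scaled. Over all arrays H2-Eb1 ranged over 4.88 log2 units, Cd74 over 2.41, H2-Ab1 over 1.64 and H2-Aa over 0.95. H2-Eb1, which did not follow the weeks, thus weighs most in this mean. Arrays of a group share their UV exposure, and RNA quality differs between arrays. The part of either in these r values was not tested.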

How the data were processed

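RNA of dorsal skin was measured on 21 Affymetrix Mouse Genome 430 2.0 arrays, 3 in each of 7 groups taken from the sample labels. The intensity values deposited by the authors are on a linear scale, background corrected, summarized per probe set and normalized. RMA is given as the tool in the submitters' processing notes, whereas a Microarray Suite 5 preprocessor is given in the methods of the study, and which of them made the values was not settled here. The values lie between 4.35 and 35056, with array medians between 30.1 and 33.3, and have no floor near 0. The number of arrays limits the precision.

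Values under 1 were set to 1 before log2 was taken. The tests covered 40540 of 45101 probe sets, without 64 array controls and without those under the 20th percentile on all 21 arrays. Of these 32317 have 1 gene symbol, 853 several and 7370 none. A model with 1 mean per group was fitted with limma 3.58.1 in R 4.3.3 (lmFit, contrasts.fit and eBayes, 14 residual and 4.43 prior degrees of freedom), with Benjamini-Hochberg adjustment over all probe sets. An exact permutation test of 3 arrays against 3 cannot give a p below 0.1, so that limma was used for single genes. The fit was checked on simulated data.

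The members and gene lists were chosen with earlier results of these data known. All 9 members are named at every probe set used. Of each other list at most 4 genes of smallest adjusted p and 2 of highest mean are named for the UV mean. Besides these, H2-DMa is named as a likeness gene and Cd3d, Cd3e and Cd247 as the other chains beside Cd3g. Of the likeness rankings the first 8 genes are named. Listed genes with no probe set of their own, among them H2-DMb1, Ccl19, Ccl21a, Clec9a, Ly6c2 and Lck, were not analysed here. Krt10 and Krt14 were named as a check of the tissue. Gene positions and promoters are from RefSeq (GRCm38.p6), and the array annotation names no build. Array numbers are not shared between groups and pair nothing. Alternatives were no filter, quantile normalization, the mean of all probe sets of a gene, only the compared arrays, a 2-fold minimum, exclusion of probe sets that differ 1.5-fold between the controls, both controls as baseline, the beta-actin or Gapdh ratio as covariate, each array left out in turn and, chosen after seeing the data, the 8 arrays of high beta-actin ratio left out. Figures were drawn with matplotlib 3.10.9 in Python 3.11.15.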

Additional observations from a re-analysis of the deposited data

Results flagged for a closer look

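Cd207 was singled out because its effect differed between the UV weeks by a direct test of that difference. Over the 5 UV weeks the limma F test gave an adjusted p of 0.00642. The step from UV week 4 to UV week 6 was a log2 difference of -1.78, on 3 arrays each, with every array of UV week 6 below every array of UV week 4. It was chosen for testing after the values were seen.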

How the results depend on the processing

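Of the counts of called members under an alternative, 134 stayed within 1.5 times the reported count and 38 moved. The 134 include counts of 0 that stayed 0, in comparisons that gave no call with all arrays. Cd207 at UV week 6 was called under all 16 alternatives run (log2 difference between -2.20 and -1.73, adjusted p up to 0.00978), and its UV mean under all 28 (between -1.11 and -0.93). At UV week 8 it was called under 14 of 16 against control week 1 and under 12 of 14 against control week 8. The calls of Epcam and H2-Ab1 were less firm, as H2-Ab1 lost its call at UV week 6 under 9 of 16 alternatives and the UV mean call was lost under 18 of 28 for Epcam and 9 of 28 for H2-Ab1.

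At UV week 6 the count of 2 became 1 under quantile normalization, with the mean of all probe sets, with a 2-fold minimum, without the 8 arrays of high beta-actin ratio, and lay between 1 and 3 with single arrays left out, with 1 without 12, 13, 16, 441 or 445 and 3 (Cd74 added) without 443. At UV week 8 the count of 1 became 0 with only the compared arrays, 3 with both controls as baseline, 4 with the Gapdh ratio as covariate and 0 without the 8 arrays, and with single arrays left out it lay between 1 and 4, with 4 (Cd207, Epcam, Cd74 and H2-Ab1) without array 551. Against control week 8 it became 2 with the mean of all probe sets, 0 with only the compared arrays, 4 with the Gapdh ratio, 0 without the 8 arrays, and lay between 1 and 4 with single arrays left out, again 4 without array 551. For the UV mean the count of 3 became 1 with a 2-fold minimum, 1 without the 8 arrays, and lay between 1 and 4 with single arrays left out, with 4 without 551 and 1 without 13, 16, 51, 53, 55 or 112. From UV week 4 to 6 the count of 1 became 0 with only the compared arrays, 0 without the 8 arrays, and lay between 0 and 1 with single arrays left out. Among the UV weeks the count of 1 became 2 with the Gapdh ratio, 0 without the 8 arrays, and lay between 1 and 4 with single arrays left out, with 4 without array 551. At UV week 2 the count of 0 became 1 (H2-Eb1) without the 8 arrays. Control week 1 then holds only arrays 13 and 16, both low for H2-Eb1, while all 3 arrays of UV week 2 read high for it.

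Without the 8 arrays UV weeks 1, 6 and 8 hold 1 array each, whose spread is taken from the groups that remain. There Epcam at UV week 8 turned from below to above the controls, at 0.033 against control week 1 and 0.10 against control week 8, and Cd74 did so at 0.10 and 0.26. The cause was not tested. No paired analysis was possible because the array numbers are not shared between groups.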
